A study of Mus musculus with 9 samples.

Results

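The genes described here are 10 negative regulators of MAP kinase signalling: the dual-specificity phosphatases Dusp1, Dusp2, Dusp4, Dusp5, Dusp6, Dusp10 and Dusp16, the Sprouty genes Spry1 and Spry2, and Spred1. They were picked by symbol, and each of the 10 matched 1 row among the 45535 rows with a gene symbol in the table of normalized read counts. The samples were CD103+ dendritic cells (DCs) of C57/BL6j mouse lung, labelled with no transgene or deletion. All groups came from mice given bleomycin, an agent used to model lung fibrosis, with lungs collected after 7 days, digested with collagenase and passed over magnetic beads to isolate CD103+ cells. The comparison sets 5 samples of freshly isolated cells (before culture) against 4 samples of cells kept for 18 h in RPMI with fetal serum and antibiotics (after culture). No lung without bleomycin is used here, mouse age and pooling are not given in the sources used here, and the extraction label speaks of total lung RNA where the other labels name CD103+ DCs.

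MAP kinases (ERK, p38 and JNK) are switched on when both a threonine and a tyrosine of their activation loop are phosphorylated. DUSP enzymes of the MAP kinase phosphatase class (MKPs) remove both phosphates, and most of their genes are induced by the very kinases they switch off. Sprouty and Spred proteins act further up, between growth factor receptors, Ras and Raf. In dendritic cells and macrophages these kinases carry signals from pattern recognition receptors to cytokine genes, and DUSP1 is known as a brake on p38-driven cytokine production.

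Depth in rows with a symbol ran from 14.7 to 28.8 M reads before and from 26.0 to 35.3 M reads after culture, and a single read stood for 0.758 to 1.79 on the normalized scale. The selection marker Itgae and the other 10 markers of type 1 conventional dendritic cells on the list used were read in both groups. The sum of these 11 markers ran from 143423 to 172697.5 before and from 32451 to 36273 after culture, with 8 lower and 3 higher. Markers of other cells were also read, none of them at 0 in all samples. The counts of lower and higher markers use the limma threshold given below. By that threshold 34.6% of all tested genes were lower and 34.2% higher after culture. All 8 endothelial markers were lower after culture (sums of 23673 to 34794 before and 3312 to 4346 after). All 8 fibroblast markers were lower (17234 to 30959 before and 2454 to 4804 after), and so were all 6 tested of 7 neutrophil markers (12721 to 21985 before and 813 to 1687 after). Of 8 alveolar epithelial markers 7 were lower (24251 to 40583 before and 4523 to 8457 after), and of 5 NK cell markers 4 (857 to 1889.9 before and 183 to 386 after). Of 5 plasmacytoid DC markers 2 were lower (4611 to 5322 before and 2613 to 3293 after). The sums overlapped between the groups for macrophage markers (1 of 8 higher, 4 lower, 12751 to 28344 before and 9124 to 21952 after) and type 2 DC markers (1 of 5 higher, 3 lower). They also overlapped for T cell markers (1 of 8 higher, 2 lower) and B cell markers (1 of 5 higher, 1 lower). In bulk RNA, fewer cells of a type and less RNA per cell cannot be told apart, and the part of these cells in the values below was not tested.

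Culture went with lower transcript levels of most of these inhibitors. Of the 10 genes, 8 fell, 1 rose (Spred1) and 1 did not pass the threshold (Dusp5), at an adjusted p of 0.05 in limma fitted to log2(normalized count + 1) over 18202 genes. Among all tested genes 68.8% passed, 34.6% lower and 34.2% higher after culture. The median log2 fold change of the 10 genes was −1.43, against 0.0065 over all tested genes. The groups did not overlap for 8 of the 10 genes, as for 57.3% of all tested genes. Every gene was well covered, from 59 reads (the lowest single value, in Spry1) to 38698 reads (the highest, in Dusp1).

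**Figure D1:**
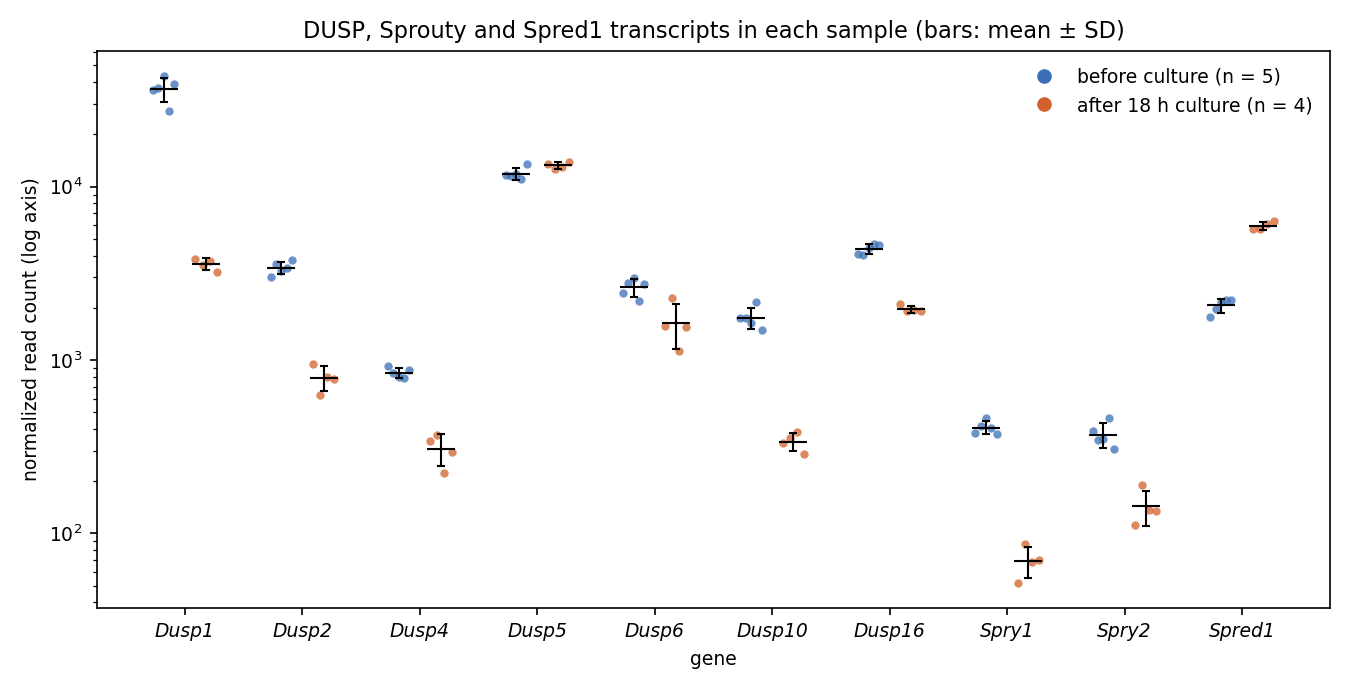
Normalized read count (log axis) of each of the 10 genes, 1 point per sample, with 5 samples before culture in blue and 4 after 18 h of culture in orange, and bars for the mean ± SD. Dusp1 went from a mean of 36662 to 3587, Dusp5 stayed within an overlapping range, and Spred1 was higher in all 4 cultured samples.

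Dusp1 led the nuclear, inducible phosphatases. DUSP1 (MKP-1) is an immediate early gene product that acts mostly on p38 and JNK. Its gene lies on chromosome 17 (GRCm38, 26505590 to 26562128, minus strand, ENSMUSG00000024190.7 in GENCODE M21). The 5 samples before culture held normalized counts of 36289.6, 37067, 43415, 27448 and 39088, and the 4 after culture held 3839.7, 3549, 3729 and 3232. The lowest sample before culture thus stood above every cultured sample. Means were 36662 ± 5846 before (SD, n = 5) and 3587 ± 266 after (SD, n = 4), which is 10.2-fold lower (log2 fold change −3.34, SE 0.115, limma adjusted p = 3.62e-11). Replicate 4 was the lowest of its group for Dusp1. That library also had the lowest sums of its group for macrophage (12751, against 19849 to 28344 in the other 4), type 2 DC and neutrophil markers, and the highest for alveolar epithelial, T cell and NK cell markers. The falls of Dusp2 and Dusp4 were smaller. DUSP2 (PAC-1) is a nuclear phosphatase of blood cells, encoded on chromosome 2 (127336159 to 127338376, plus strand). Its values were 3019, 3560.2, 3275, 3377 and 3750.03 before and 948, 631, 798 and 782 after culture, a 4.30-fold fall with no overlap (log2 fold change −2.11, SE 0.106, limma adjusted p = 1.20e-09). Dusp4 (chromosome 8, 34807297 to 34819894, plus strand), which encodes the nuclear phosphatase MKP-2, had values of 919, 843, 802, 783 and 877 before and 341, 371, 224 and 296 after culture. Its fall was 2.74-fold, also without overlap (log2 fold change −1.48, SE 0.130, limma adjusted p = 3.04e-07).

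The sequences around the RefSeq starts of Dusp1 and Dusp5 are shown because these genes exchanged places as the most abundant of the 10, and that of Spred1 because it is the gene that rose. Sequences are from RefSeq (GRCm38.p6), run from 250 bases before to 50 bases after the annotated start, and are written 5′ to 3′ on the gene's strand. Capitals mark matches, on either strand, to the cAMP response element TGACGTCA, the AP-1 site TGANTCA, the ETS core CCGGAA, the E-box CACGTG, the TATA box TATAAA, the CArG box bound by serum response factor, or the NF-kB site. The windows are chr17:26508423-26508722 (minus strand), chr19:53528895-53529194 (plus strand) and chr2:117120821-117121120 (plus strand). RefSeq and GENCODE M21 place some starts differently. On its minus strand the GENCODE gene of Dusp1 starts at 26562128, far upstream of the Dusp1 window, and that of Spred1 starts at 117121374, just downstream of the Spred1 window.
Dusp1: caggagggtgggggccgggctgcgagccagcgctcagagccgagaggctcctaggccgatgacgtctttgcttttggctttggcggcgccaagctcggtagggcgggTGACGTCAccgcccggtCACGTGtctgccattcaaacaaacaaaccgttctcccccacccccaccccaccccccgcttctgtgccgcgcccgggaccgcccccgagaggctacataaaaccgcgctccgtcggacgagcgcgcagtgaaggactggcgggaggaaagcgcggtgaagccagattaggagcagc
Dusp5: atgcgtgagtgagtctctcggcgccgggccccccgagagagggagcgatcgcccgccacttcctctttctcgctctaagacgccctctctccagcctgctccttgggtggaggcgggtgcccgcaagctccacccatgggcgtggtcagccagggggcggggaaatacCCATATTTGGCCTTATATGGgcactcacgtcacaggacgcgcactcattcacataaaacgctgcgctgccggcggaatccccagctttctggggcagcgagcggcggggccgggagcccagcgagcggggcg
Spred1: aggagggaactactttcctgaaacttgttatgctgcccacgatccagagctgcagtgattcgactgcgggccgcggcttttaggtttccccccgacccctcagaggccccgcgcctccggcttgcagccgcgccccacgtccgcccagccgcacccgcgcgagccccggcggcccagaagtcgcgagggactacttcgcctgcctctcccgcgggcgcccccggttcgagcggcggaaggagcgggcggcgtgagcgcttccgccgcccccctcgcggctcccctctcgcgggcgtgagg
The Dusp1 window holds a cAMP response element 143 to 136 bases before the start and an E-box 126 to 121 bases before it. The Dusp5 window holds 2 adjoining CArG boxes, 82 to 73 and 72 to 63 bases before the start, and the Spred1 window holds none of the 7 motifs. Of 32544 promoter windows of this length, 1.80% hold the cAMP response element, 1.64% a CArG box and 7.17% the E-box. Promoter windows were matched for 9 of the 10 genes. Among these 9, the cAMP response element was found in Dusp1 alone, the CArG box in Dusp5 alone, the E-box in Dusp1 and Dusp2, and the ETS core in Spry2 (15.0% of all windows). The AP-1 site (7.79% of all windows), the NF-kB site (4.53%) and the TATA box (13.6%) were found in none of the 9. These matches are a description of the letters in each window.

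The phosphatases selective for ERK did not move like Dusp1. DUSP5 works in the nucleus and DUSP6 (MKP-3) in the cytoplasm, and both are known as feedback inhibitors induced by ERK. Dusp5 lies on chromosome 19 (GRCm38, 53529109 to 53542431, plus strand). Its normalized counts were 11613, 11453, 11796, 11119 and 13434 before and 13449, 12648, 13008.5 and 13962 after culture. Replicate 5 before culture fell inside the range of the cultured samples, while the other 4 were below it. The means were 11883 ± 902 (SD, n = 5) and 13267 ± 568 (SD, n = 4), a log2 fold change of 0.16 (SE 0.0754, 95% interval −0.0016 to 0.32, limma adjusted p = 0.0726). Without replicate 5 before culture the change was 0.21 (limma adjusted p = 0.0272; the 9 fits that each leave out a sample gave 0.0272 to 0.170), and with GC and length corrected it was 0.53 (limma adjusted p = 3.03e-05). Of the 50-base windows of the longest Dusp5 transcript, 20.5% also occur, on the other strand, in the overlapping gene AC137853.2, so that reads there could be split if counting ignored strand.

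Dusp6 lies on chromosome 10 (GRCm38, 99263231 to 99267489, plus strand). Its values were 2421, 2797, 2982, 2194 and 2737 before and 1571, 2269, 1121 and 1559 after culture. It was the most variable of the 10 genes after culture, with a coefficient of variation of 29.1%, and replicate 2 after culture lay above the lowest sample before culture. The mean fell 1.61-fold, from 2626 ± 315 (SD, n = 5) to 1630.0 ± 475 (SD, n = 4; log2 fold change −0.72, SE 0.159, limma adjusted p = 0.00118). Among the cultured samples, Dusp6 and Dusp4 were both highest in replicate 2 and lowest in replicate 3. The sums of macrophage, type 2 DC and neutrophil markers were likewise highest in replicate 2 and lowest in replicate 3. Macrophage sums were 21952 and 9124, with 14055 and 14414 in the other 2 cultured samples. The part of these cells in Dusp6 was not tested. By library name, replicate 3 after culture carries the number 4, as does replicate 4 before culture, where these sums were also the lowest of the group. Both libraries had the highest alveolar epithelial, T cell and NK cell sums of their group. A shared origin was not tested. The log2 fold change of Dusp6 was −0.90 without replicate 2 after culture and −0.56 without replicate 3 after culture.

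Dusp10 and Dusp16, which encode phosphatases that prefer p38 and JNK, both fell. DUSP10 (MKP-5) and DUSP16 (MKP-7) restrain these stress kinases. Dusp10 (chromosome 1, 184013302 to 184075636, plus strand) had values of 1757, 1737, 1628, 2165 and 1486 before and 334, 353, 382 and 287 after culture. It was 5.18-fold lower without overlap (log2 fold change −2.36, SE 0.113, limma adjusted p = 7.69e-10). 1700056E22Rik overlaps Dusp10 on the other strand and went from 112 ± 21.6 (SD, n = 5) to 15.0 ± 2.39 (SD, n = 4), and no 50-base window of the longest Dusp10 transcript occurs in another gene. Dusp16 (chromosome 6, 134715468 to 134792625, minus strand) had values of 4081, 4035, 4429, 4664 and 4629 before and 2100.5, 1926, 1933 and 1913 after culture. It was 2.22-fold lower, again without overlap (log2 fold change −1.15, SE 0.0707, limma adjusted p = 8.58e-09). Its spread was small, with coefficients of variation of 6.80% before and 4.51% after culture.

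The Sprouty genes and Spred1 moved in opposite directions. Sprouty proteins block Ras-ERK signalling below receptor tyrosine kinases, and SPRED1 brings the Ras inhibitor neurofibromin (encoded by Nf1) to the membrane. Spry1 (chromosome 3, 37639947 to 37644598, plus strand) had the lowest mean of the 10 per transcript length. Its values of 382, 415, 462, 407 and 374 before culture were followed by 52.1, 87.2, 68.2 and 70.7 after it, a 5.86-fold fall (log2 fold change −2.55, SE 0.146, limma adjusted p = 4.12e-09). Of the windows of the longest Spry1 transcript 19.4% occur on the other strand in the overlapping Gm42922, whose own normalized count was at most 5.02 in any sample. Spry2 (chromosome 14, 105891947 to 105896819, minus strand) had values of 388, 346, 351, 465 and 308 before and 111, 190.3, 137 and 135 after culture, a 2.59-fold fall without overlap (log2 fold change −1.38, SE 0.160, limma adjusted p = 4.48e-06). Spry1 and Spry2 were both highest in replicate 2 among the cultured samples. This library also had the highest sums of its group for fibroblast (4804, against 2454 to 3273 in the other 3), endothelial, neutrophil, macrophage, type 2 DC and plasmacytoid DC markers, and the lowest for type 1 DC, T cell and NK cell markers. Spred1 (chromosome 2, 117121374 to 117182279, plus strand) went the other way. It had values of 1778, 1979, 2155, 2228 and 2205 before and 5687, 5734, 6053 and 6353 after culture. All 4 cultured samples were above all 5 others, and the mean was 2.88-fold higher (2069 ± 189.9 against 5957 ± 310.5, SD, n = 5 and n = 4, log2 fold change 1.53, SE 0.0799, limma adjusted p = 1.74e-09).

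**Figure D2:**
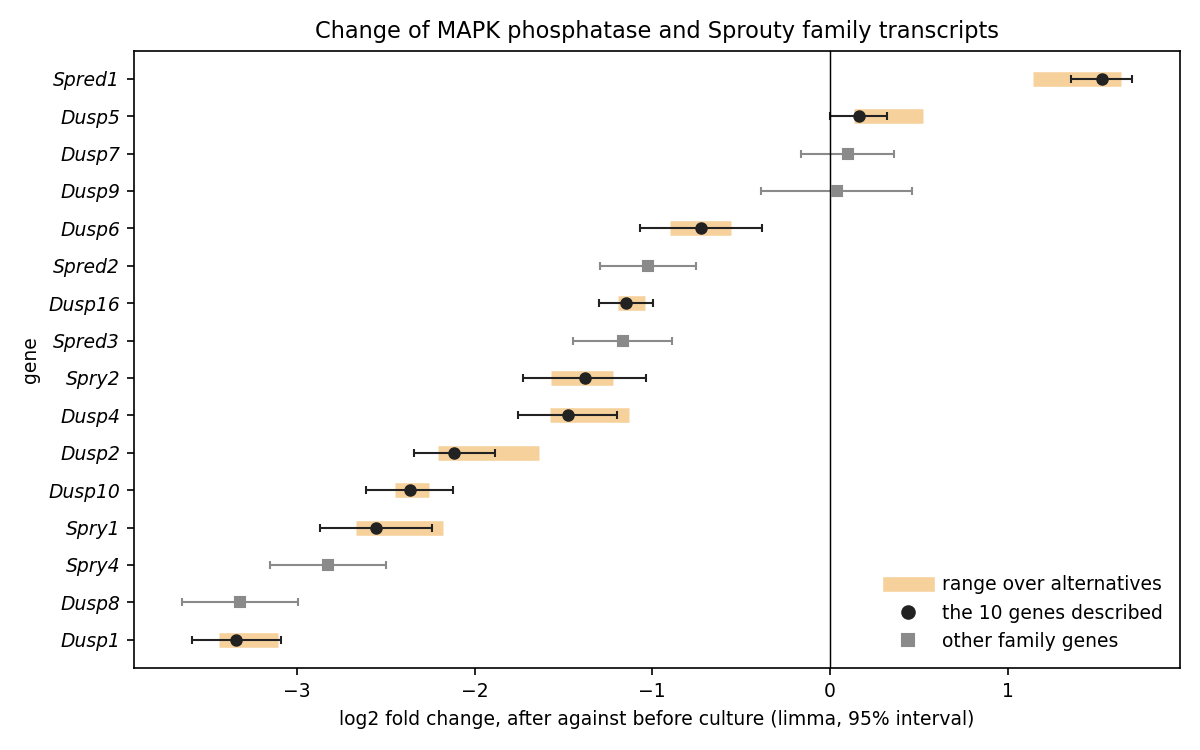
Log2 fold change after against before culture with its 95% interval (limma) for the 10 genes (black circles) and the 6 other tested MKP, Sprouty and Spred genes (grey squares), with the range over 21 alternative analyses in orange. Spred1 at 1.53 lies on the right, Dusp5 at 0.16 has an interval that touches 0, and Dusp1 and Dusp8 are lowest at −3.34 and −3.32.

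The make-up of the group was reordered. Normalized counts were divided by the length of the longest transcript in GENCODE M21, since levels of different genes compare only per length, and the following levels and shares are described without a test. The summed level per kb of the 10 genes was 26157 ± 2745 before (SD, n = 5) and 9690.2 ± 213 after culture (SD, n = 4), which is 2.70-fold lower. Most of this drop was that of Dusp1, from 15850 ± 2527 to 1551 ± 115 per kb (SD, n = 5 and n = 4). Dusp1 made up 60.3 ± 3.85% of this sum before and 16.01 ± 1.26% after culture. Dusp5 made up 18.5 ± 1.56% before and 55.4 ± 1.69% after, and so took the first place. Spred1 went from 1.33 ± 0.208% to 10.2 ± 0.579%, from the seventh to the third place. Dusp2 held 8.09 ± 1.00% and 5.03 ± 0.758%, and Dusp6 held 3.59 ± 0.161% and 6.02 ± 1.78%. Shares are relative to the sum, so that of Dusp6 was higher although its own level fell. The nuclear, inducible Dusp1, Dusp2 and Dusp4 together held 69.6 ± 2.85% before and 22.2 ± 1.63% after culture. Dusp10 and Dusp16 together held 5.76 ± 1.11% and 5.23 ± 0.258%, with overlapping samples. This is not the share of all p38 and JNK phosphatases, since it leaves out Dusp1, which also acts mostly on these kinases.

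Before culture the order per kb was Dusp1, Dusp5, Dusp2, Dusp6, Dusp16, Dusp10, Spred1, Dusp4, Spry2 and Spry1. Neighbouring ranges overlapped for Dusp6 and Dusp16, for Spred1 and Dusp4, and for Spry2 and Spry1. After culture it was Dusp5, Dusp1, Spred1, Dusp6, Dusp2, Dusp16, Dusp10, Dusp4, Spry2 and Spry1, with overlap between neighbours from Dusp6 to Dusp2, Dusp2 to Dusp16, Dusp10 to Dusp4, and Dusp4 to Spry2. With the length of all annotated exons in place of the longest transcript, Dusp1 held 53.8% before and Dusp5 60.9% after culture, and the first 4 places of each group were the same. In that case Dusp10 stood before Dusp16 and Dusp4 before Spred1 in samples before culture, and Dusp4 stood before Dusp10 after it.

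**Figure D3:**
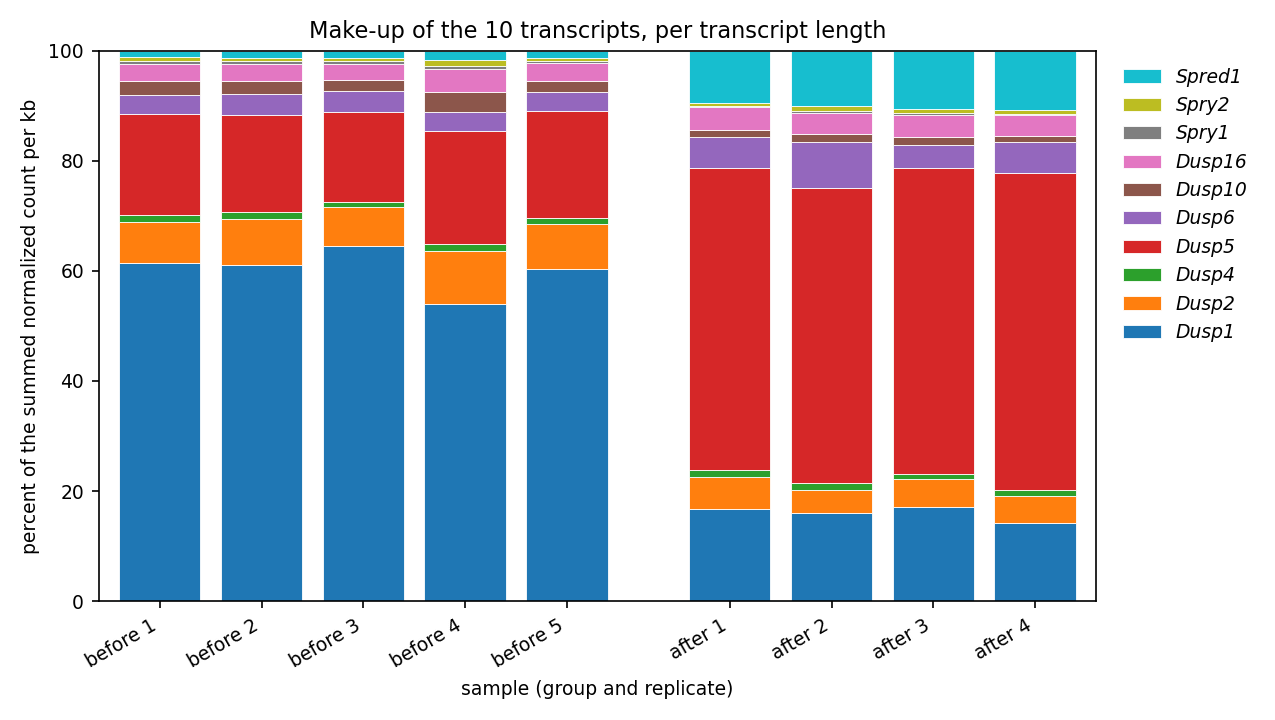
Share of each of the 10 genes in their summed normalized count per kb of transcript, 1 stacked bar per sample, 5 before and 4 after culture. Dusp1 (bottom, blue) takes 54.1 to 64.6% of each sample before culture and 14.2 to 17.0% after it, and Dusp5 (red) 16.4 to 20.5% and 53.5 to 57.5%.

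The rest of both families was measured as well. Of the other MKPs, Dusp8, a phosphatase of JNK and p38, fell 10.0-fold (593 ± 62.1 against 59.3 ± 12.6, SD, n = 5 and n = 4, log2 fold change −3.32, SE 0.152, limma adjusted p = 4.91e-10). The ERK phosphatases Dusp7 and Dusp9 did not pass the threshold, at log2 fold changes of 0.10 (limma adjusted p = 0.480) and 0.04 (limma adjusted p = 0.873). After the GC and length correction both were higher, by 0.53 and 0.49. The remaining Sprouty and Spred genes in the table all fell. Spry4 went from 755 ± 116 to 106 ± 22.2, Spred2 from 1394 ± 66.1 to 697 ± 158 and Spred3 from 330.5 ± 40.0 to 147 ± 21.1 (SD, n = 5 and n = 4), with log2 fold changes of −2.82, −1.02 and −1.17. Within its family Spred1 was therefore the gene with a rise, while the other 5 tested Sprouty and Spred genes fell.

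Atypical DUSPs, small phosphatases that lack the MAP kinase docking domain, moved in both directions. Of 15 on the list 10 were tested, 4 were higher and 2 lower, with a median log2 fold change of 0.07, where 34.2% of all tested genes were higher and 34.6% lower. Dusp18 fell 2.80-fold (467 ± 55.8 against 166 ± 34.3, SD, n = 5 and n = 4). Styx, a pseudophosphatase that holds ERK in the nucleus, rose from 229 ± 28.7 to 397 ± 37.9, and Dusp11, a phosphatase that acts on RNA ends, from 3625 ± 246 to 4764 ± 401. Dusp19 rose 1.55-fold, and its change was 0.17 (limma adjusted p = 0.339) after the GC and length correction. The second gene that fell, Dusp28 (log2 fold change −0.54), no longer passed without replicate 2 or 5 before culture or replicate 1 after culture (limma adjusted p from 0.0539 to 0.0819). It also missed the threshold with upper quartile scaling (0.0614), quantile normalization (0.168), a replicate block by title (0.0620) or library name (0.0612), and the GC and length correction, where its change was −0.11 (limma adjusted p = 0.592).

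The kinases that these inhibitors act on were compared in the same fit. Of 36 genes of the Ras-ERK cascade, from adaptors to ERK and its RSK targets, 13 rose and 13 fell, with a median of 0.02. These shares, 36.1% in each direction, were close to those of all tested genes (34.2% higher and 34.6% lower). Mapk3, which encodes ERK1, had means of 3796 and 3768 (limma adjusted p = 0.954, chosen after its value was seen), and was higher by 0.39 on the log2 scale after the GC and length correction (limma adjusted p = 7.64e-04). Among the Ras proteins and their exchange factors, Rasgrp4 fell 10.1-fold and Rasgrp3 4.07-fold, while Rras2 rose 3.72-fold and Nras 1.80-fold. Nf1, the partner of SPRED1, did not pass (log2 fold change −0.19, limma adjusted p = 0.0794, chosen after its value was seen). It passed, as lower, without replicate 2 (0.0469) or replicate 4 after culture (limma adjusted p = 0.0477), with quantile normalization (0.0368), and after the GC and length correction (−0.29, limma adjusted p = 0.00786). Grb2, Sos1, Gab1, Map2k1 and Map2k2 lost their call without at least 1 of the samples, and Braf gained one without replicate 4 before culture.

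In the p38 module 10 of 15 tested genes were lower and 2 higher (median −0.53), which is 66.7% lower and 13.3% higher where all tested genes had 34.6% and 34.2%. Mapk13 (p38 delta) fell 7.55-fold, and the activating kinases Map2k6 and Map2k3 fell 5.24-fold and 2.18-fold, whereas Rps6ka5, which encodes the chromatin kinase MSK1, rose 2.50-fold. After the GC and length correction 7 genes of this list were lower in place of 10, and 4 higher in place of 2. Mapkapk2, Mapkapk3, Mknk1 and Mknk2 lost their lower call (limma adjusted p from 0.276 to 0.806). Tab3, which did not pass (limma adjusted p = 0.114), passed as higher without replicate 4 before culture (0.0390) and with upper quartile scaling (0.0208), and as lower after the GC and length correction (−0.18, limma adjusted p = 0.0426). In the JNK module, 1 of 8 tested genes was higher (Mapk9, 1.40-fold) and 2 lower (Mapk8ip1, 1.86-fold, and Map2k7, 1.23-fold). These shares, 12.5% higher and 25% lower, were below those of all tested genes (34.2% and 34.6%). Map2k7 had a change of 0.08 (limma adjusted p = 0.319) after that correction. Mapk8 (JNK1), which did not pass (limma adjusted p = 0.0810), passed as lower without replicate 3 after culture (0.0153) and with the block by library name (0.0201). It also passed as lower after the GC and length correction (−0.69, limma adjusted p = 4.36e-05). With that correction Spag9 passed as lower (−0.32, limma adjusted p = 0.00143) and Mapk8ip3 as higher (0.39, limma adjusted p = 0.00121). At the MAP3K level all 15 genes passed, 5 higher (33.3%, against 34.2% of all tested genes) and 10 lower (66.7%, against 34.6%). Of these 15, Map3k10 was lost without replicate 2 before or replicate 1 or 3 after culture (limma adjusted p from 0.0534 to 0.0634). Map3k10 was also lost with upper quartile scaling, quantile normalization or the block by title. After the GC and length correction 4 were higher and 8 lower, with Map3k2, Map3k7 and Map3k11 lost (limma adjusted p from 0.266 to 0.776). Map3k1 rose 2.59-fold, to 22385 ± 944, and Map3k6, Map3k9 and Map3k4 fell 9.61-fold, 4.33-fold and 2.47-fold.

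The last list joins genes known to be switched on by ERK signalling (such as Fos, Egr1 and Ier2) with the transcription factors Elk1, Elk3, Elk4 and Srf, through which ERK acts on them. Of its 21 genes 15 fell and 2 rose (median −1.42), that is 71.4% lower and 9.52% higher, against 34.6% and 34.2% of all tested genes. Fosb (322-fold), Ccnd1 (9.18-fold), Ier2 (12.96-fold) and Fos (49.2-fold) had the smallest adjusted p of this list. Of the 2 that rose, Fosl1 was 1.40-fold higher and Elk1 1.24-fold higher, the latter not passing without replicate 2 (0.0728) or replicate 4 after culture (limma adjusted p = 0.0546). Egr2 fell 1.29-fold and did not pass without replicate 1, 2, 3 or 5 before culture, or replicate 3 or 4 after culture (limma adjusted p from 0.0649 to 0.142), nor with no filter, TMM or upper quartile scaling, the block by title or the GC and length correction (limma adjusted p from 0.0517 to 0.116). Elk4, which did not pass (limma adjusted p = 0.0534), passed as lower in 6 of the 21 alternatives. Over all 8 lists, 27 of 111 tested genes were higher and 56 lower, which is 74.8% called against 68.8% of all tested genes.

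**Figure D4:**
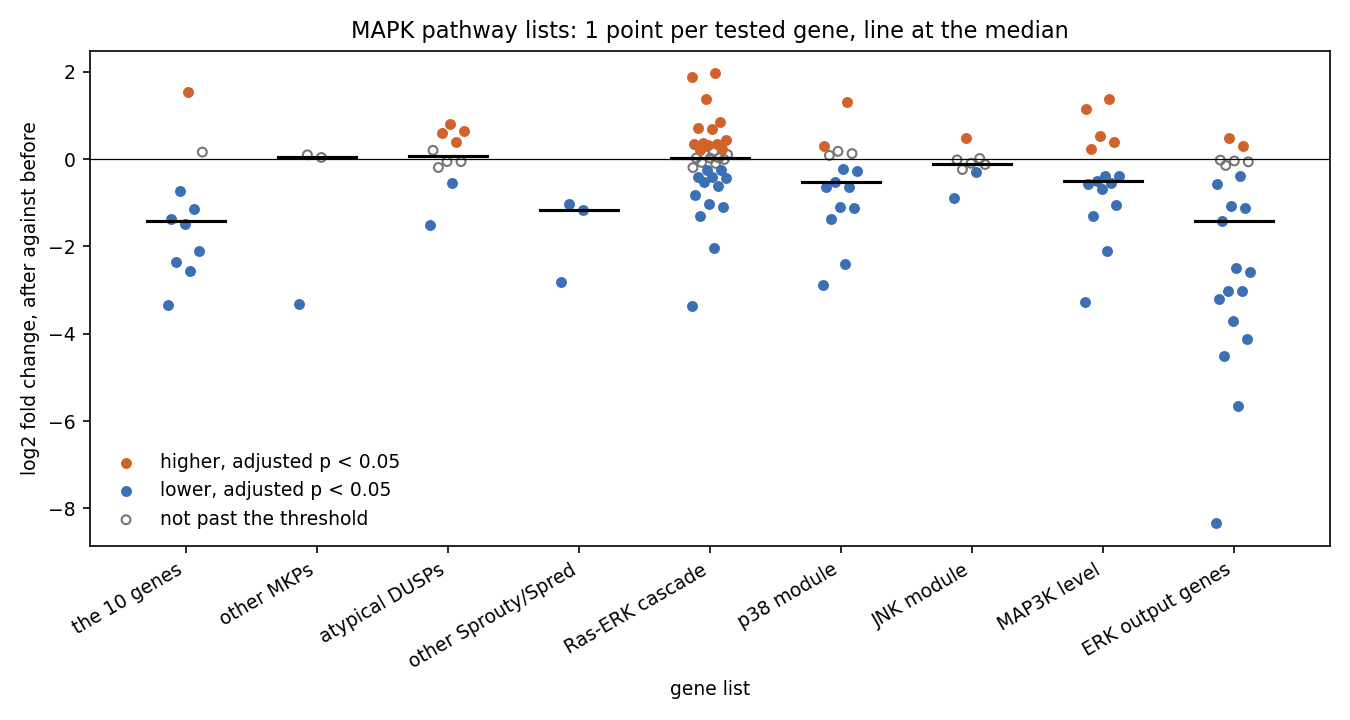
Log2 fold change after against before culture for each tested gene of the 10 described and of 8 lists around them, with genes higher (orange) and lower (blue) at a limma adjusted p under 0.05, open circles for the rest and a line at each median. Medians run from −1.43 for the 10 genes and −1.42 for the list of ERK output genes and factors to 0.07 for atypical DUSPs.

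The genes whose profiles over the 9 samples lay closest to Dusp1 were Cdh1, Jund and Gm37352, at distances of 0.371, 0.420 and 0.428 on the log2 scale among 11785 genes whose mean normalized count reached 100. Those closest to Spred1 were Kpna3, Tuba1a and Zc2hc1a, at 0.220, 0.237 and 0.243. Kpna3 went from 1516 ± 88.0 to 4066 ± 280 and Jund from 8601 ± 1786 to 796 ± 98.7 (SD, n = 5 and n = 4). Cdh1 (log2 fold change −3.21) is also on the list of alveolar epithelial markers used above, and the part of such cells in its profile was not tested.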

How the data were processed

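For 9 samples, the authors deposited normalized read counts in a single table, 1 row per gene, treated here as a signal with no negative values. DESeq2 and the build GRCm38 are named in the submitters' processing notes, and aligner, counting tool, strandedness and annotation are not given in the sources used here. All values (100%, tolerance 0.0001) were whole reads divided by 1 factor per sample, so reads were recovered. The 3782 rows without a symbol (3.87 to 10.9% of reads) were left out. Depth was 14.7 to 35.3 M reads in named rows.

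Genes with a mean of at least 10 were tested with limma 3.58.1 (R 4.3.3) on log2(value + 1), group as the only term with a mean-variance trend, two-sided, Benjamini-Hochberg over 18202 genes, threshold 0.05. This scale understates changes of low genes. Fold values are ratios of group means. The labels do not say which samples came from separate animals, so p-values measure only the spread between these samples.

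The 10 genes and all lists were chosen with earlier results of these data known. Named genes are the 10, all other MKP, Sprouty and Spred genes, up to 4 genes of each other list by smallest adjusted p, and the 3 nearest profiles (Euclidean distance) to the genes with the largest rise and fall. Other names are marked as chosen after seeing values, or are named because a call depends on 1 library or setting. Marker lists of other cell types were described by sums.

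Alternatives were other pseudocounts, filters and scalings, edgeR 4.0.16 and DESeq2 1.42.0 on recovered reads, replicate blocks, leaving out each sample, and a loess correction for GC content and length (96.5% of tested genes, GENCODE M21). The script was tested on simulated counts of this comparison with 200 genes changed 2-fold: at a dispersion of 0.02 it recovered 200 among 18181 tested (3.85% of calls false), and at 0.1 it recovered 38 among 18180 (7.32% false). In the real comparison 68.8% of tested genes were called, a far larger part than was changed in the simulation. The simulated rates therefore check the script and do not give the rates of the real comparison. Other tools were Python 3.11.15, NumPy 2.4.6, pandas 2.3.3 and matplotlib 3.10.9.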

Additional observations from a re-analysis of the deposited data

Results flagged for a closer look

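In 1 of the 20 groups of values examined (10 genes before and after culture), a sample stood apart from its group. Dusp16 was 2100.5 in replicate 1 after culture, against a group median of 1929, and its gap to the next sample was 0.894 of the group's whole range, where 0.829 is the critical value for 4 samples. Chance puts about 1 in 20 such groups past that value.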

How the results depend on the processing

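Apart from Dusp5, the 9 other genes kept their direction and their side of the threshold under each of the 21 alternatives (189 of 189 values). Dusp5 passed, as higher, with TMM scaling (log2 fold change 0.19, limma adjusted p = 0.0373), upper quartile scaling (0.27, 0.00685), quantile normalization (0.19, 0.0268), DESeq2 (0.16, adjusted p = 0.0480), the GC and length correction (0.53) and without replicate 5 before culture (0.21). The count of the 10 genes that rose was therefore 2 under TMM scaling, upper quartile scaling, quantile normalization, DESeq2 and the GC and length correction, and ran from 1 to 2 when a sample was left out. The cause was not tested. The count that fell was 8 under each alternative. Upper quartile scaling moved the median of all genes to 0.114. Over the pathway lists 76 to 85 genes were called, against 83. Same-numbered samples correlated by −0.213 to 0.0807 (title numbers) and 0.0447 to 0.349 (library names). By library name, each cultured sample correlated most with its same-numbered sample among those before culture. The next highest values were 0.0664, 0.0796, −0.0372 and 0.0223 for cultured replicates 1 to 4 in turn. The labels state no pairing, so the main fit treated the samples as unpaired, and pairing by library name was not tested. With a replicate block, 76 (title) and 84 (library name) pathway genes were called, and 1 of the 10 genes rose and 8 fell with either. Depth limits Spry1 most, with 59 reads in its lowest sample.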

Other observations

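Several family members were too low to test. Normalized counts were 2.37 ± 3.70 before and 7.41 ± 1.07 after culture for Dusp15 (SD, n = 5 and n = 4), 3.52 ± 4.06 and 0.380 ± 0.760 for Dusp26, and 4.71 ± 2.83 and 10.04 ± 7.89 for Styxl1, and Dusp21 was at 0 in all 9 samples. Of the genes that overlap members on the other strand, Ergic1 (over the annotated Dusp1 gene) went from 2164 ± 148 to 2959 ± 365, a log2 fold change of 0.45 (limma adjusted p = 5.77e-04), opposite in sign to Dusp1. Gm36328 (over Dusp16) had 61.6 ± 10.0 and 41.5 ± 26.4 (limma adjusted p = 0.0868).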
